A study of Mus musculus with 2 samples.

Results

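Basement membrane was described here through 9 genes: Col4a1, Col4a2, Col15a1, Col18a1, Lama4, Lamb1, Lamc1, Nid1 and Hspg2. They were chosen by name, all 9 were listed for both plates, and they form 9 of 17938 genes listed for either plate. The cells were single Tomato+ (Tom+) cells sorted from the tibia and femur periosteum of αSMACreER/Ai9 mice, in which tamoxifen-activated Cre under the αSMA (Acta2) promoter switches on Tomato in cells that use that promoter at the time of injection. All mice were female, all received 2 tamoxifen injections of 75 mg/kg, and each time point was 1 pool of cells from a few mice. The 2-day pool (2 d of chase, age 10.3 weeks) and the 6-week pool (43 d of chase, age 14.4 weeks) were aSMACreER/Ai9/Col2.3GFP mice. The 13-week pool (96 d of chase, age 20.1 weeks) was aSMACreER/Ai9/R26-M2rtTA/TetOP-H2B-GFP mice that had received doxycycline for 5 weeks. The 2-day and 13-week pools shared a 384-well plate and the 6-week pool was on another, so time cannot be told apart from plate and age for 6 weeks against 2 days, or from strain, doxycycline and age for 13 weeks against 2 days. The questions were which of the labelled cells carry basement membrane transcripts and whether this differs with time.

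The basement membrane is a thin sheet of matrix that underlies epithelia and endothelia and surrounds pericytes, smooth muscle, muscle fibres, nerves and fat cells. Laminin trimers (Lama4, Lamb1 and Lamc1 encode an alpha, a beta and a gamma chain) assemble on the cell surface, collagen IV (Col4a1 and Col4a2 encode its most widespread chains) forms a second network, and nidogen (Nid1) and the heparan sulfate proteoglycan perlecan (Hspg2) bridge them. Collagens XV and XVIII (Col15a1, Col18a1) sit at the face of the sheet towards the connective tissue, and in blood vessels the sheet is shared by pericytes and endothelium.

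Col4a1 and Col4a2 lie head to head on mouse chromosome 8 (GRCm38), Col4a1 from 11198423 to 11312826 on the minus strand and Col4a2 from 11312805 to 11449287 on the plus strand, so that the annotated 5′ ends overlap by 22 bases. Because the UMIs were counted at 3′ ends, this overlap does not mix the counts of the pair. The promoter windows (RefSeq, GRCm38.p6, 300 bases that span the start) are shown because the pair share this start and were often found in the same cells, as given below. The capitals mark the GC box GGGCGG and the CCAAT box on either strand. The Col4a1 window is chr8:11312777-11313076 on the minus strand and the Col4a2 window is chr8:11312555-11312854 on the plus strand.
Col4a1: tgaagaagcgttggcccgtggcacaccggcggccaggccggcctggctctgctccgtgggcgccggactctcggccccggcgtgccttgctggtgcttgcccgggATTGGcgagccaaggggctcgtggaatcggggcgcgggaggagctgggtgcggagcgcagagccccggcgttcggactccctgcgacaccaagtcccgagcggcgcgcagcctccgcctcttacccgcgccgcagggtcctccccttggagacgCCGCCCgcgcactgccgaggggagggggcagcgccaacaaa
Col4a2: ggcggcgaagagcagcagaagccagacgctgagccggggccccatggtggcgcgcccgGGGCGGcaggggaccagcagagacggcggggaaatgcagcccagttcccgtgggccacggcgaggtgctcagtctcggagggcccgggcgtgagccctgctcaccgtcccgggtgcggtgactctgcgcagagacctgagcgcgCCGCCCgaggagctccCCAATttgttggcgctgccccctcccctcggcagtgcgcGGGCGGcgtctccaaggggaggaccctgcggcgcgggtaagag
The windows share 78 bases, which are the same bases read from opposite strands. Col4a1 held 1 GC box and 1 CCAAT box, Col4a2 held 3 GC boxes and 1 CCAAT box, and neither held TATAAA. The GC box of Col4a1 lies in the shared bases and is the last GC box of Col4a2 read from the other strand. Of all 32851 windows of this length, 35.7% held a GC box, 37.4% a CCAAT box and 13.6% TATAAA on either strand. The windows were rich in G and C, with 74.0% and 73.7% against a median of 52.7% over all windows. RefSeq windows were matched for 7 of the 9 members. A match of letters is a description and not a site.

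Cells were kept where a well held at least 200 genes, which left 181 of 192 wells of the 2-day pool, 189 of 216 of the 6-week pool and 133 of 192 of the 13-week pool, 503 cells with median depths of 672 to 795 UMIs per cell. A cell with at least 1 Rgs5 UMI was put in the Rgs5 class (Rgs5 is a pericyte marker), and a cell with at least 3 UMIs of Thbs4, Fmod and Tnmd together (tendon and ligament matrix genes) in the fibrous class. The Rgs5 class held 35, 45 and 38 cells of the 3 pools, the fibrous class 70, 68 and 49, both together 3, 4 and 6, and neither class 79, 80 and 52. A list of 13 endothelial genes summed to 148 UMIs per 10000 in the Rgs5 class, against 1.12 in fibrous cells without Rgs5 and 11.8 in neither class. This list includes Fabp4 and Cd36, and all its values given here count them. None of its genes was at 0 over the Rgs5 class, and it was detected in 73.7% of those cells. By pool its level in the Rgs5 class was 99.7, then 143, then 189. A list of 15 perivascular genes, which includes Rgs5 itself, summed to 123 in the Rgs5 class. It stood at 9.44 in fibrous cells without Rgs5 and 18.7 in neither class. The 6-week pool stood apart in other ways: a list of 7 osteoblast genes was detected in 92.6% of its cells, and in at least 90.0% of each class, against 22.1% of 2-day and 18.8% of 13-week cells. Its median mitochondrial share was 3.59%, against 5.83% and 6.93%, and it had 7.65 reads per UMI, against 5.02 and 5.50. Intervals below are 95% intervals for counting error only. With 1 pool of cells per time point there was no test between times.

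The 9 genes together gave 981 UMIs in the kept cells, 22.0 per 10000 UMIs (95% Poisson interval 20.6 to 23.4), and no class lacked them. Each transcript was counted once at its 3′ end, so levels per 10000 UMIs can be set side by side between genes without correction for length. Collagen IV took the most, with 312 UMIs of Col4a2 and 174 of Col4a1. The linkers came next, with 150 UMIs of Nid1 and 106 of Hspg2. The laminin chains were thinner, with 65 UMIs of Lamc1, 50 of Lama4 and 31 of Lamb1. Col15a1 had 47 UMIs and Col18a1 had 46.

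The genes were sparse in single cells. At least 1 UMI of the 9 genes was found in 327 of 503 cells (65.0%), 3 or more UMIs in 139 cells and 10 or more in 11 cells. A single member was detected in 153 cells, 4 in 29 cells and 7 in 3 cells, and no cell held 8 or 9. The highest cell was a 13-week cell in neither class with 23 UMIs of the 9 genes, 2.34% of their total, among 1646 UMIs. The 5 cells with most UMIs were all in neither class, and their depths of 1646 to 2442 UMIs were all above the median. Since detection follows depth, the share was also computed at a depth of 300 UMIs per cell, with the 20 shallower cells left out. Averaged over all possible draws, 42.4% of the 2-day cells, 40.0% of the 6-week cells and 38.5% of the 13-week cells then held a UMI of the 9 genes. The Rgs5 class stood at 46.6%, the fibrous class at 44.6% and neither class at 34.2% over the 3 pools.

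**Figure D1:**
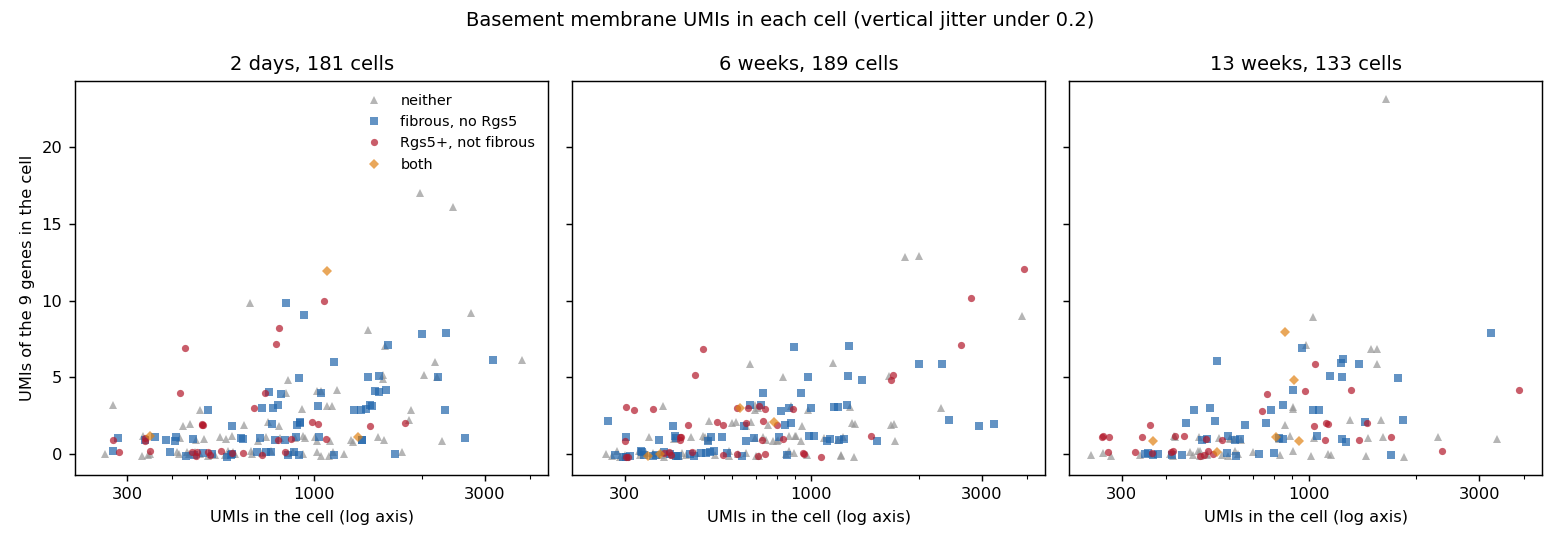
UMIs of the 9 basement membrane genes in each kept cell (vertical axis) against the cell's total UMIs (horizontal log axis), in 3 panels by time, with 1 point per cell and its class by colour and marker. Points of all classes spread from 0 upwards at every time, and the highest cell, with 23 UMIs, is a grey triangle at 13 weeks.

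The UMIs came from all classes in shares close to their shares of the RNA. Cells with Rgs5 only gave 20.7% of the members' UMIs and 18.7% of all UMIs, cells in the fibrous class only 36.9% and 36.1%, cells in both 3.57% and 2.10%, and cells in neither 38.8% and 43.1%. Single genes were spread less evenly. Col4a1 and Col4a2 had 27.0% and 26.3% of their UMIs in Rgs5-only cells, while Nid1 had 15 of its 150 UMIs there and 46.7% in fibrous-only cells. Col18a1, the source of endostatin, had 58.7% in fibrous-only cells and 17.4% in neither class. Lamb1 and Col15a1 were the opposite, with 61.3% and 53.2% in neither class, on 31 and 47 UMIs.

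**Figure D2:**
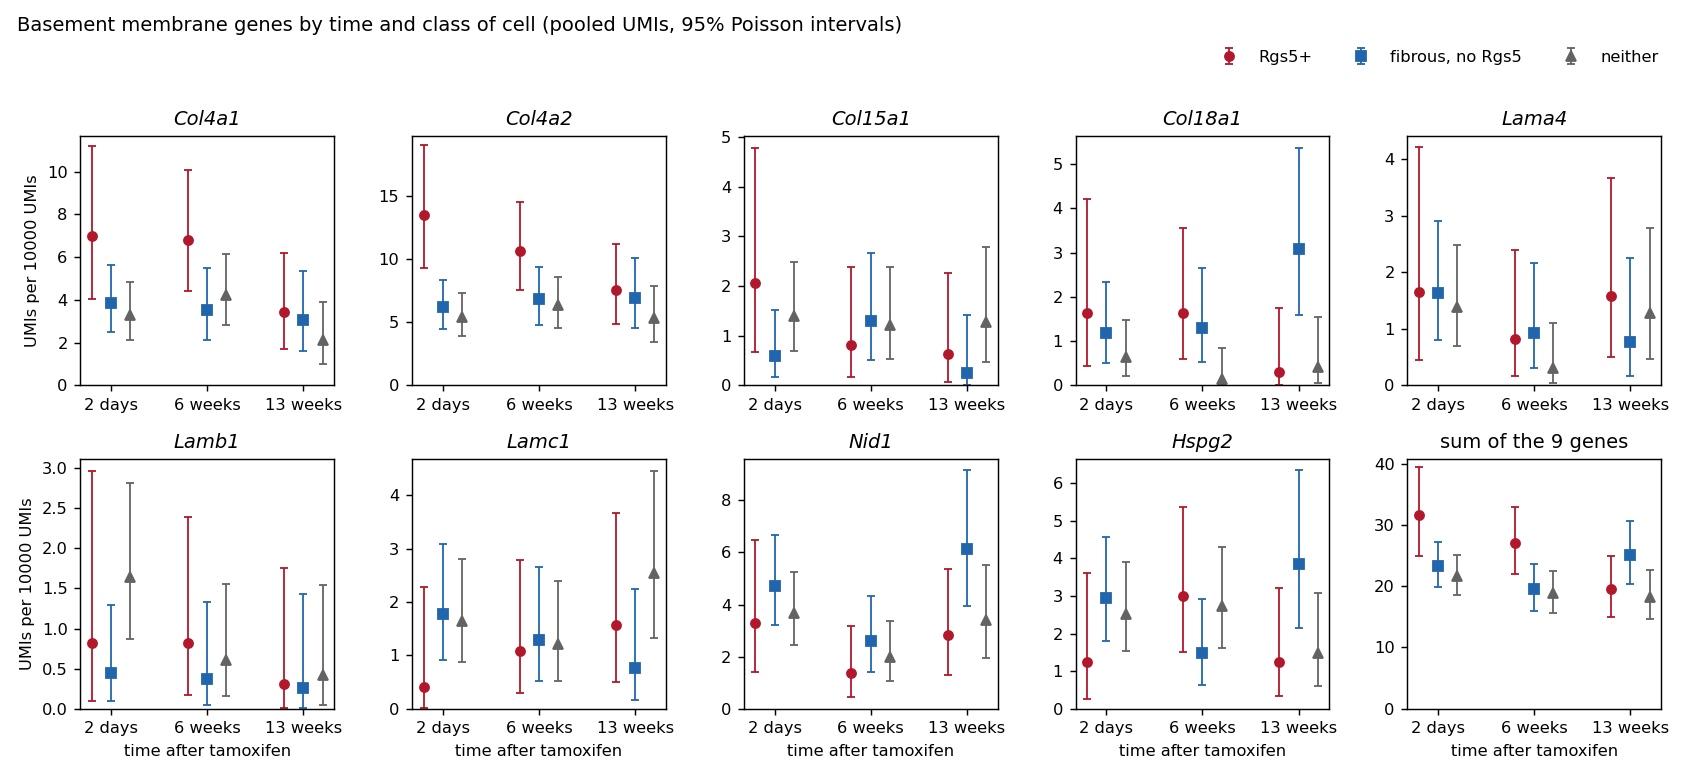
Level of each member and of their sum, as UMIs per 10000 UMIs pooled over the cells of a class (vertical axis, from 0), by time after tamoxifen and by class, with 95% Poisson intervals. The Rgs5 class is above the others for Col4a1 and Col4a2 at every time, with the smallest gap at 13 weeks, and its sum runs from 31.6 to 19.5. Fibrous cells are drawn without those that hold Rgs5, and they stand highest for Nid1 at every time.

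Col4a2 was called higher in cells with Rgs5 than in cells without it, a call that 9 of 22 alternatives ended, and no other member tested was called. Col4a2 stood at 13.5 (9.32 to 19.02), 10.6 (7.56 to 14.5) and 7.54 (4.83 to 11.2) UMIs per 10000 in the Rgs5 class at 2 days, 6 weeks and 13 weeks. In cells without Rgs5 it stood at 5.79 (4.62 to 7.16), 6.58 (5.21 to 8.20) and 6.05 (4.52 to 7.93). The Rgs5 class was the higher in each of the 3 pools, with the intervals of the levels apart at 2 days and overlapping at 6 and 13 weeks. The Col4a2 ratio was 2.34 (1.52 to 3.54), 1.62 (1.07 to 2.40) and 1.25 (0.735 to 2.06), so that its interval included 1 at 13 weeks only. Col4a1 showed the same order, with 6.98, 6.82 and 3.46 in the Rgs5 class against 3.54, 3.91 and 2.56 without Rgs5. The classes were tested with edgeR's quasi-likelihood test on sums of UMIs per pool and class, with the pool as a block and Benjamini-Hochberg adjustment over 927 genes. Of these, 111 were called higher in the Rgs5 class (12%) and 103 lower (11.1%). Of the 9 members, 4 passed the filter on low counts, 1 was called higher and 0 lower, and their median log2 fold change was 0.24 against 0.01 over all genes tested. Col4a2 was the one called, with a log2 fold change of 0.81 (SE 0.24, 95% interval 0.34 to 1.29, adjusted p 0.00681 by edgeR). Col4a1 had the same log2 fold change, 0.81 (SE 0.33, 0.15 to 1.48), and missed the threshold at an adjusted p of 0.0692 by edgeR. Nid1 and Hspg2 had log2 fold changes of −0.53 (SE 0.40) and −0.33 (SE 0.46), with adjusted p of 0.404 and 0.677 by edgeR. For Hspg2 the value ran from −1.01 to −0.11 when 1 pool was left out. Its ratio of the Rgs5 class to no Rgs5 was 0.452, 1.39 and 0.491 by pool, in order of time. The Col4a2 call was lost when either of 2 pools was left out. By edgeR its adjusted p was 0.263 without the 2-day pool (log2 fold change 0.47) and 0.113 without the 6-week pool (0.87). It was 0.288 with DESeq2's Wald test (0.76). By edgeR it was also 0.0627 without the 13 cells of both classes (0.69), 0.0651 with a minimum of 300 genes per cell (0.68), 0.0595 over genes of 30 or more UMIs (0.77), 0.847 with read counts (0.55) and 0.958 with no filter (0.26).

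Within the Rgs5 class the Col4a2 level was close with and without endothelial transcripts. Rgs5 cells with a UMI of an endothelial gene other than Fabp4 and Cd36 held Col4a2 at 10.2 (7.77 to 13.1, 63 cells), and those without held it at 10.6 (7.44 to 14.7, 55 cells). Col4a1 stood at 5.77 and 5.60 in the same cells, and the 9 genes together at 25.1 and 26.5. When all cells with such a UMI were left out of both classes, the log2 fold change of Col4a2 was 0.83 and its adjusted p 0.201 by edgeR, with 557 genes tested.

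The members too sparse for the test were counted directly. Over the 3 pools the Rgs5 class to no Rgs5 ratio was 1.20 (0.571 to 2.35) for Lama4, 0.912 (0.306 to 2.28) for Lamb1, 0.691 (0.314 to 1.37) for Lamc1, 1.03 (0.456 to 2.11) for Col15a1 and 1.19 (0.547 to 2.41) for Col18a1. All these intervals include 1, and differences within them were not detectable at this depth. The ratio of Col18a1 was 2.08 (0.876 to 4.62) without the 13-week pool and 0.767 (0.231 to 2.02) without the 6-week pool, and that of Col15a1 was 0.684 (0.202 to 1.85) without the 2-day pool. Lama4, the laminin chain best known from vessel walls, stood at 1.64, 0.818 and 1.57 in the Rgs5 class, on 12 UMIs in all.

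In the fibrous class Nid1 had the largest log2 fold change of the 5 members tested and missed the threshold, and Col4a1 and Col4a2 stood near their levels in other cells. Nid1 was at 5.11 (3.58 to 7.07), 2.49 (1.36 to 4.17) and 6.21 (4.09 to 9.04) UMIs per 10000 in fibrous cells at 2 days, 6 weeks and 13 weeks, against 3.28, 1.79 and 2.96 in the rest. The fibrous class was the higher in all 3 pools, with intervals of the levels that overlapped in each. The Nid1 ratio of the fibrous class to the rest was 1.56 (0.945 to 2.58), 1.39 (0.638 to 2.95) and 2.10 (1.15 to 3.87). Its interval left out 1 at 13 weeks only. The pooled Nid1 ratio was 1.71 (1.22 to 2.38), for counting error only. Without the 2-day, 6-week or 13-week pool it was 1.80, 1.76 and 1.56, each with an interval above 1. Over 1107 genes tested, 126 were called higher in the fibrous class (11.4%) and 79 lower (7.14%). With library sizes in place of TMM factors this split was 113 against 192, and the median of all genes was −0.24. Of the 9 members 5 were tested, 0 were called, 1 had an unadjusted p under 0.05 and their median log2 fold change was 0.20, against a median of −0.00202 over all genes tested. DESeq2's Wald test also called 0. Nid1 had a log2 fold change of 0.90 (SE 0.28, 95% interval 0.27 to 1.53) and an adjusted p of 0.0537 by edgeR. Hspg2 had 0.31 (SE 0.41) and Lamc1 0.06 (SE 0.41). Col4a2 had 0.20 (SE 0.23) and Col4a1 0.06 (SE 0.29), which turned to −0.05 and −0.18 with library sizes only.

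Col18a1 did not pass the filter on low counts and was counted directly. It stood at 1.135, 1.42 and 2.99 per 10000 in the fibrous class against 0.894, 0.597 and 0.269 in the rest at 2 days, 6 weeks and 13 weeks. The pooled ratio was 2.76 (1.47 to 5.35) and rested on the 13-week pool, where 13 of 15 UMIs were in fibrous cells. Without that pool it was 1.69 (0.783 to 3.67), and without the 2-day pool 4.60 (1.96 to 12.002). In an edgeR fit that kept all genes with 30 or more UMIs its log2 fold change was 1.57, with an adjusted p of 0.0884. Lamb1 ran the other way, at 0.411 in fibrous cells against 0.871 in the rest, with a ratio of 0.472 (0.172 to 1.129). The Lamb1 ratio was 0.778 (0.175 to 2.79) without the 2-day pool, 0.452 (0.130 to 1.28) without the 6-week pool and 0.360 (0.107 to 0.976) without the 13-week pool.

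Cells in neither class were not alike. Those with a UMI of Pdgfra or Ly6a, markers of fibroblasts and mesenchymal progenitors, held the 9 genes at 24.3 per 10000 (21.5 to 27.4, 97 cells), and the other 114 cells at 13.6 (11.2 to 16.4). The ratio was 1.79 (1.43 to 2.25) over the pools, and 2.05 (1.47 to 2.90), 1.72 (1.11 to 2.74) and 1.56 (0.985 to 2.52) at 2 days, 6 weeks and 13 weeks. The median depth was 937 UMIs in the cells with and 566.5 in those without, and the part of depth in this difference was not tested. In the other classes the interval of this ratio included 1: fibrous cells without Rgs5 held the 9 genes at 19.8 with such a UMI and 23.6 without (ratio 0.837, 0.655 to 1.06), and the Rgs5 class at 26.96 and 24.4 (1.11, 0.851 to 1.44). In neither class, Nid1 stood at 4.11 with such a UMI and 1.498 without, Col4a1 at 4.38 and 1.87, and Col4a2 at 7.06 and 3.87. Hspg2 and Lamc1 stood at 2.41 against 2.25 and 1.70 against 1.75 there. Cells of neither class with a UMI of an endothelial gene other than Fabp4 and Cd36 held the 9 genes at 14.1 (30 cells) against 20.9 in the rest, a ratio of 0.673 (0.478 to 0.927) that was 1.09, 0.672 and 0.389 by pool. Col4a1 stood at 0.656 against 3.84 in them (ratio 0.171, 0.0202 to 0.643), and Col4a2 at 4.92 against 5.88.

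Cells of neither class with a UMI of Pax7 or Cdh15, markers of muscle satellite cells, had the 9 genes at 12.3 (9.06 to 16.3, 43 cells), against 21.8 (19.5 to 24.2) in the rest of the class. By pool the ratio was 0.471 (0.295 to 0.724), 0.766 (0.423 to 1.301) and 0.481 (0.187 to 1.04), so that its interval left out 1 at 2 days only. Nid1 stood at 0.512 and 3.66 and Col4a2 at 2.30 and 6.605, while Lamc1 stood at 2.30 and 1.57 and Hspg2 at 2.81 and 2.22. The ratio for Nid1 was 0.140 (0.0165 to 0.529), and for Lamc1 it was 1.47 (0.600 to 3.27). Also in neither class, the 17 cells with 3 or more UMIs of the muscle genes Acta1 and Mb had 5 UMIs of the 9 genes, a level of 5.35 (1.74 to 12.5) against 20.6 in the other cells of the class. Except where given by pool, these splits sum cells over the 3 pools, and they cover counting error only, with no test over samples.

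Over time the sum of the 9 genes stood at 23.7 (21.5 to 26.1) in the 2-day pool, 21.0 (18.8 to 23.4) in the 6-week pool and 20.9 (18.4 to 23.7) in the 13-week pool. The ratio to 2 days was 0.885 (0.763 to 1.03) at 6 weeks and 0.880 (0.748 to 1.03) at 13 weeks. Both intervals include 1. The 13-week value leans on 1 cell, the highest cell given above: without it the level was 19.2 (16.8 to 21.9) and the ratio 0.809 (0.684 to 0.955). The highest 2-day cells, with 17 and 16 UMIs of the 9 genes, were kept, so this step could only lower the ratio. With the classes weighted as at 2 days the levels were 20.2 and 21.1.

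The sum was also followed within the classes, and whether the classes differed in their change was not tested. In the Rgs5 class it was 31.6 (24.9 to 39.5), 27.0 (21.9 to 32.9) and 19.5 (14.9 to 24.98), a 13-week to 2-day ratio of 0.617 (0.434 to 0.873). In the fibrous class it was 24.4, 19.7 and 26.2, with a ratio of 1.07 (0.841 to 1.37), and in neither class 21.6, 18.8 and 18.3, with 0.847 (0.646 to 1.10). That cell held 23 of the 86 UMIs of neither class in the 13-week pool, and without it the level was 13.9 (10.7 to 17.8) and the ratio 0.643 (0.474 to 0.863). In all cells outside the fibrous class it was 23.2, 21.7 and 17.8, with 0.764 (0.613 to 0.950), or 0.645 (0.509 to 0.813) without that cell. No 2-day cell was left out in the same way. The highest cell of the 2-day Rgs5 class held 12 UMIs of the 9 genes, and the ratio of 0.617 was not computed without it. Col4a2 in the Rgs5 class had a 13-week to 2-day ratio of 0.557 (0.315 to 0.971) and Col4a1 one of 0.495 (0.210 to 1.12). Other markers moved with time in the Rgs5 class. The endothelial list given above stood highest there at 13 weeks, while a list of 10 fibroblast or progenitor genes stood at 120, 57.0 and 44.6 per 10000, with 2, 1 and 3 of its genes at 0. The osteoblast list stood at 3.28, 35.5 and 3.46 there, with 5, 1 and 4 of its 7 genes at 0. The part of these lists in the ratios was not tested. With a UMI of an endothelial gene other than Fabp4 and Cd36, Rgs5 cells had the 9 genes at 32.8, 27.2 and 18.4, and without one at 30.5, 26.6 and 21.7. With a UMI of Pdgfra or Ly6a, Rgs5 cells had them at 39.6, 23.5 and 22.3, and without one at 24.9, 30.2 and 16.3.

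Single members over all cells were mostly near their 2-day levels. Col4a2 stood at 6.89, 7.53 and 6.45 and Hspg2 at 2.51, 2.36 and 2.21 at 2 days, 6 weeks and 13 weeks. Col4a1 stood at 4.03, 4.59 and 2.80, Lamc1 at 1.52, 1.21 and 1.70, Col15a1 at 1.17, 1.15 and 0.764 and Col18a1 at 0.993, 0.893 and 1.27. The intervals of their ratios to 2 days all include 1. Nid1 was lowest at 6 weeks, at 4.03 (3.14 to 5.10), 2.04 (1.40 to 2.88) and 4.16 (3.08 to 5.50), with a 6-week to 2-day ratio of 0.507 (0.322 to 0.781) and a 13-week ratio of 1.03 (0.701 to 1.51). Its 6-week ratio was 0.415 in the Rgs5 class, 0.487 in the fibrous class and 0.538 in neither class. Lama4 was also lowest at 6 weeks, at 1.52, 0.638 and 1.19, with a 6-week ratio of 0.420 (0.181 to 0.900). The 6-week cells alone were on the second plate, so time and plate cannot be told apart for these genes. The osteoblast genes, the mitochondrial share and the reads per UMI given above set the same pool apart, and their part in these ratios was not tested. Lamb1 stood at 1.05, 0.574 and 0.339, a 13-week ratio of 0.323 (0.0795 to 0.980) that rests on 18 and 4 UMIs. In all, 18 ratios were computed for single members over all cells, and 3 intervals left out 1, 2 of them below 1 at 6 weeks and 1 below 1 at 13 weeks. Among all 2484 genes with 30 or more UMIs, the 6-week interval lay below 1 for 7.29% and above 1 for 8.78%, and the 13-week interval for 8.66% and 6.6%. The median ratio of the 9 members was 0.899 at 6 weeks and 0.879 at 13 weeks, against 1.03 and 0.953 over those genes.

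**Figure D3:**
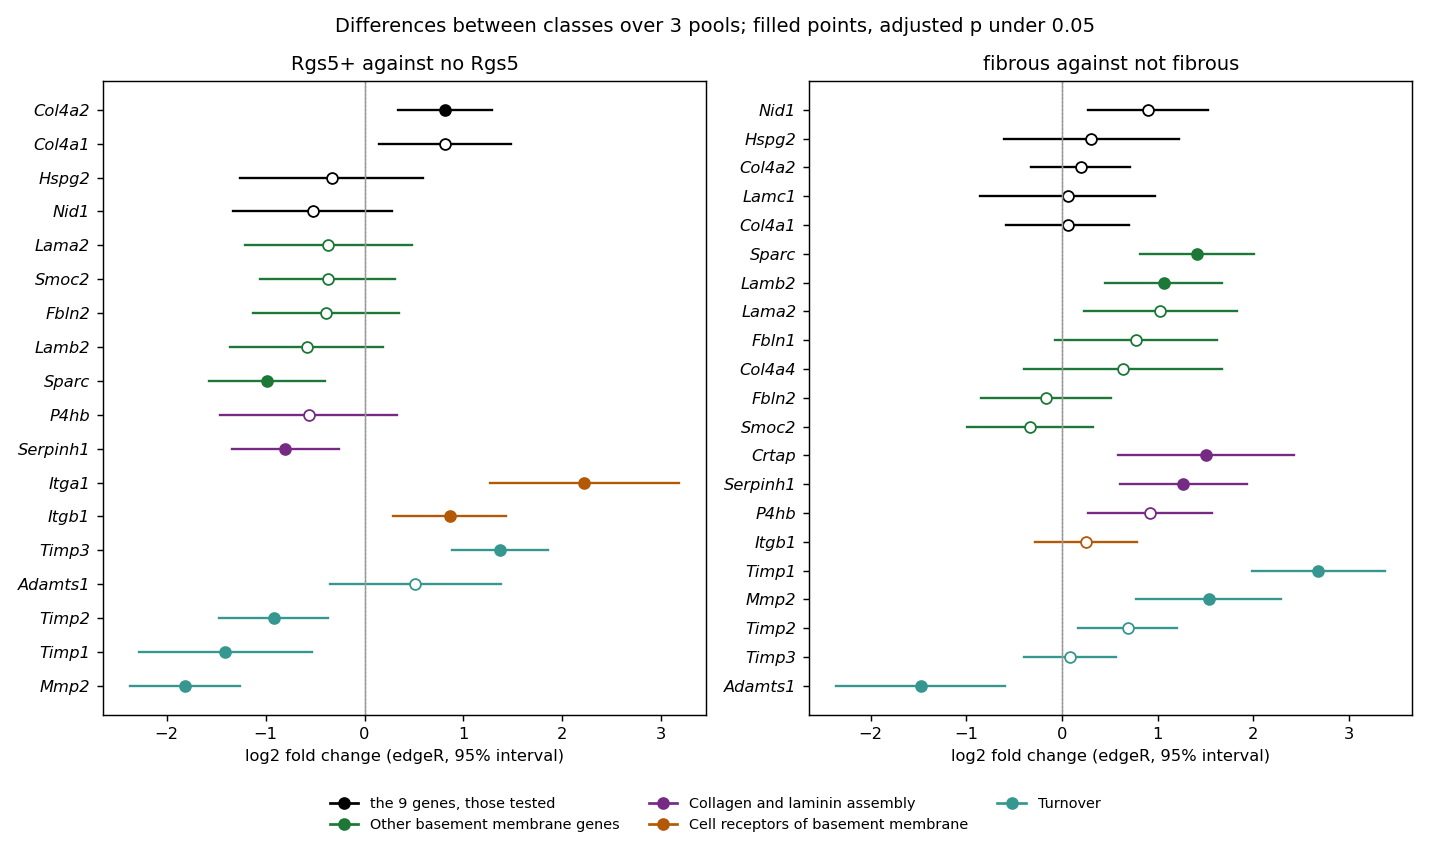
Log2 fold changes (horizontal axis) with 95% intervals from edgeR for the members that passed the low-count filter and for listed genes of the pathway, in the Rgs5 contrast (left) and the fibrous contrast (right). Filled points passed an adjusted p of 0.05, and the dotted line is the median of all genes tested. Among the members only Col4a2, on the left, is filled, and Sparc and Serpinh1 lie on opposite sides of 0 in the panels.

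Genes that act with the members were read from lists of the pathway. Their counts stand against 12% of all tested genes called higher and 11.1% lower in the Rgs5 contrast, and 11.4% and 7.14% in the fibrous contrast. The filter on low counts admits a gene that reaches its minimum in 1 class alone. Such a gene enters through the class where it is high. Of 25 other basement membrane genes, 5 were tested in the Rgs5 contrast with 0 called higher and 1 lower, and 7 in the fibrous contrast with 2 higher and 0 lower. Sparc, a collagen-binding matricellular protein that is also abundant in bone and tendon, was lower in the Rgs5 class (log2 fold change −0.99, adjusted p 0.00760 by edgeR) and higher in the fibrous class (1.41, adjusted p 0.00582 by edgeR). Lamb2, the laminin beta chain of muscle and synaptic sheets, was higher in the fibrous class (1.06, adjusted p 0.0239 by edgeR). Lama2 had 1.03 there, with an adjusted p of 0.0735 by edgeR. Of 12 genes of collagen and laminin assembly, 2 were tested in the Rgs5 contrast with 0 higher and 1 lower, and 3 in the fibrous contrast with 2 higher and 0 lower. Serpinh1, the collagen chaperone HSP47, had log2 fold changes of −0.80 and 1.27 in the Rgs5 and fibrous contrasts and Crtap, of the prolyl 3-hydroxylase complex, 1.51 in the fibrous contrast. Both also serve fibrillar collagens. Crtap stood at 2.24 per 10000 in fibrous cells without Rgs5, 0.885 in neither class and 0.539 in the Rgs5 class. It entered the test through the fibrous class, so its call is a description.

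Of 11 cell receptors of the basement membrane, 2 were tested in the Rgs5 contrast and both were higher there, and 1 was tested in the fibrous contrast and not called. Itga1, the integrin chain that binds collagen IV, had a log2 fold change of 2.22 (adjusted p 0.000180 by edgeR) and its partner Itgb1 0.86 (adjusted p 0.0190 by edgeR). Itga1 stood at 2.48 per 10000 in the Rgs5 class, 0.808 in fibrous cells without Rgs5 and 0.260 in neither class. It entered the test through the Rgs5 class, so its call and the count of 2 are descriptions. Of 10 turnover genes, 5 were tested in each contrast. In the Rgs5 class 1 was higher, Timp3 (1.37), and 3 were lower, Mmp2 (−1.82), Timp1 (−1.41) and Timp2 (−0.92). In the fibrous class Timp1 (2.68) and Mmp2 (1.54) were higher and Adamts1 (−1.48) was lower. Adamts1 stood at 0.932 per 10000 in fibrous cells without Rgs5, 2.97 in neither class and 2.91 in the Rgs5 class. It entered the test through cells outside the fibrous class, so its call is a description.

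Levels of these lists were mostly lower in the 13-week pool than in the 2-day pool, and went both ways in the 6-week pool. Of 28 listed genes with 30 or more UMIs, the interval of the 13-week to 2-day ratio over all cells lay below 1 for 9 and above 1 for 1, against 8.66% and 6.6% of all genes of that depth. The median 13-week ratio of these 28 genes was 0.715, against 0.953 over all genes of that depth. The ratio was 0.544 (0.502 to 0.589) for Sparc and 0.546 (0.394 to 0.747) for Serpinh1. It was 0.539 (0.370 to 0.770) for Smoc2 and 0.275 (0.103 to 0.625) for Fbln1. The receptor gene Itga6 was the one above 1, at 5.45 (1.74 to 22.6) on 30 UMIs. Lama2 and Lamb2 stood at 1.34 (0.876 to 2.04) and 1.01 (0.667 to 1.51). At 6 weeks 3 of the 28 intervals lay below 1 and 2 above, against 7.29% and 8.78% of all genes, and Sparc was among those above at 1.16 (1.09 to 1.23). Over all cells of the 3 pools the fibroblast or progenitor list stood at 211, 198 and 123, the osteoblast list at 25.6, 36.2 and 3.23 and the endothelial list at 15.2, 37.8 and 64.5. Their part in these ratios was not tested.

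Col4a1 and Col4a2 were often found in the same cell. Of 125 cells with a Col4a1 UMI, 58.4% also held Col4a2, against 22.8% of the 378 cells without, at median depths of 905 and 663 UMIs. At an equal depth of 300 UMIs the expected shares were 33.9% and 14.1%. At that depth cells with and without Col4a1 held Nid1 in 13.3% and 7.12%, and Hspg2 in 9.07% and 6.16%. The largest gap was that of Col4a2 in cells with Lamb1, 38.7% against 15.9%, but only 23 cells held a Lamb1 UMI.

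**Figure D4:**
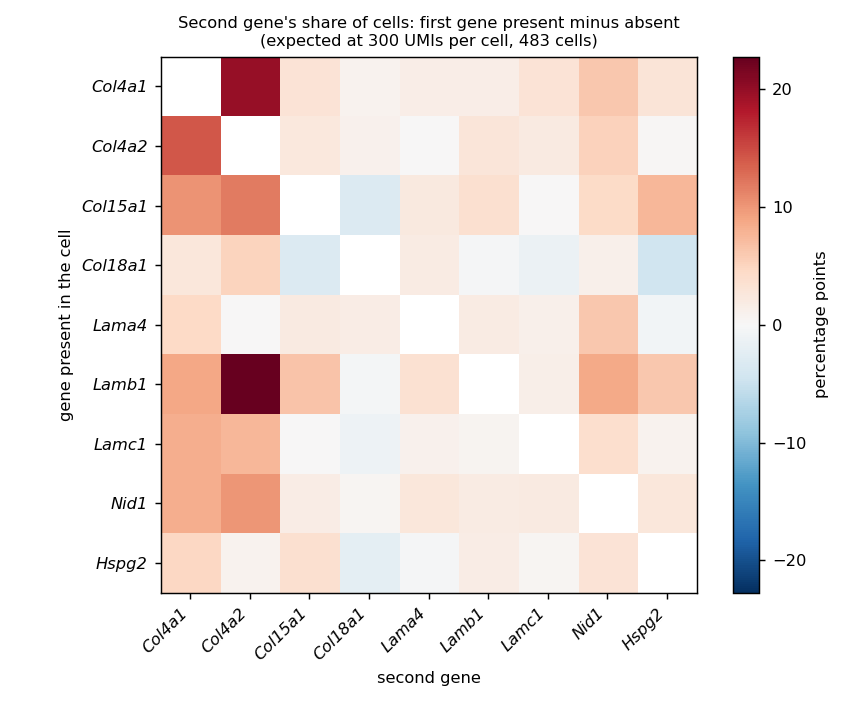
Expected share of cells with a second member (columns) when the first member (rows) is present, minus the share when it is absent, in percentage points, at 300 UMIs per cell in 483 cells. The darkest square is Col4a2 in cells with Lamb1, Col4a1 with Col4a2 is dark red in both directions, most other pairs are pale, and Col18a1 with Hspg2 and with Col15a1 is pale blue.

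There were 1.79 Col4a2 UMIs for each Col4a1 UMI (1.48 to 2.17). By pool the ratio was 1.71 (1.26 to 2.34), 1.64 (1.21 to 2.23) and 2.30 (1.51 to 3.58), in order of time. It was 1.81 in the Rgs5 class, 1.90 in the fibrous class and 1.72 in neither class, and these intervals overlap. Over the 9 groups of pool by class, which share plates and differ in depth, Col4a1 and Col4a2 had Pearson's r of 0.913 and Spearman's rho of 0.63. Of 593 genes with at least 100 UMIs, the closest in rank to the sum of the 9 members over the same 9 groups were Igfbp7 (rho 0.70, r 0.808), Calm2, Mfge8, mmu-mir-6236 and Eif3k. These are descriptions over 9 points.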

How the data were processed

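Single Tom+ periosteal cells were sorted into 384-well plates and their transcripts were tagged at the 3′ end. The authors deposited for each plate a table of UMI counts by gene and well, and one of read counts that served here as an alternative, with bcl2fastq 2.18.0.12, Picard 2.9.3, STAR 2.5.4a and GRCm38 named in the submitters' processing notes. A map of wells gave the time points, and one note calls the 13-week pool 12 weeks. The 168 wells with no time point were not used. Both plates use the same 384 barcodes, so cells were named by plate and well. A gene listed for one plate was counted as 0 on the other. Doublets were not removed.

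UMIs were summed over cells with 200 or more genes and given per 10000 UMIs with exact Poisson intervals, and ratios with exact conditional intervals. They cover counting error only. Classes were compared by edgeR 4.0.16 (R 4.3.3) with TMM factors, its filter on low counts and the pool as a block, so that the 3 pools served as replicates although they differ in time. Nothing else separates biological from technical spread. DESeq2 1.42.0 was an alternative. The rule of the classes used Rgs5, Thbs4, Fmod and Tnmd, which are no results. Shares of cells were computed at 300 UMIs, by one seeded draw per cell and, chosen after the data were seen, as the expectation over all draws. Leaving out each pool in turn from the pooled ratios between classes, and leaving out the cell with most UMIs of the members, were also added after the data were seen. The scripts were tested on simulated data. The members and the pathway and marker lists were chosen with earlier results of these data known, and the genes named are those members and listed genes. P3h1 and P3h2 were matched through their older symbols Lepre1 and Leprel1, and Cd3e, Cfd, Mmp9, Ncmap and Sox10 of the lists were not matched to a listed gene. Python 3.11.15, pandas 2.3.3 and scipy 1.17.1 were used.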

Additional observations from a re-analysis of the deposited data

Results flagged for a closer look

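The ratio of the summed level of the 9 genes between classes was not alike in the 3 pools. In the Rgs5 class against cells without Rgs5 it was 1.41 (1.09 to 1.81) in the 2-day pool, 1.41 (1.10 to 1.79) in the 6-week pool and 0.911 (0.672 to 1.22) in the 13-week pool. In the fibrous class against the rest it was 1.05 (0.857 to 1.28), 0.908 (0.716 to 1.15) and 1.48 (1.14 to 1.91). These were marked because the direction differed between pools. The difference between pools was not tested, since each time point was 1 pool.

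Wells with fewer than 200 genes entered no comparison and still held the genes. The 97 such wells gave 28 UMIs of the 9 genes among 16690 UMIs, a level of 16.8 per 10000 (11.1 to 24.2), against 22.0 in the kept cells. By pool, in order of time, the level was 15.4, 29.1 and 11.4.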

How the results depend on the processing

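Col4a2 kept a positive log2 fold change in the Rgs5 contrast in all 22 alternatives that touch it (0.26 to 1.24) and was called in 13 of them, with adjusted p from 0.00154 to 0.958. Nid1 in the fibrous contrast was positive in 22 of 22 (0.60 to 1.00) and called in 3. Members called higher in the Rgs5 contrast were 0 with no filter on low counts, with genes of 30 UMIs or more, with DESeq2's Wald test, with a minimum of 300 genes, with read counts, without endothelial UMIs and without cells of both classes, 2 with the Rgs5 class at 2 UMIs or without the cells of 100 hemoglobin UMIs, and 0 to 1 when 1 pool was left out. In the fibrous contrast 1 was called with the class at 5 UMIs, without those hemoglobin cells or without the deepest 5% of cells, and 0 when any pool was left out. Genes higher in the Rgs5 contrast (111) were 72 with no filter, 50 with DESeq2, 60 against neither class, 42 with read counts, 24 without endothelial UMIs, 24 after thinning before the classes and 65 to 102 with 1 pool left out. Genes lower (103) were 218, 54, 32, 75, 17, 21 and 55 to 110 in the same order, 62 with no pool block and 57 without the deepest cells. Genes higher in the fibrous contrast (126) were 72 with DESeq2, 52 with read counts, 50 with the class at 1 UMI, 51 after thinning and 62 to 133 with 1 pool left out. Genes lower (79) were 34, 29, 9, 16 and 32 to 109, and 192 with library sizes only, 206 with no filter and 136 with 30 UMIs or more. The median log2 fold change of all genes was −0.74 with no filter and −0.48 with read counts in the Rgs5 contrast, and −0.31 and −0.20 in the fibrous contrast. With read counts the 6-week level was 14.97 and its ratio to 2 days 0.671. A single draw of 300 UMIs gave shares of cells with a member of 42.3%, 35.2% and 32.5% at 2 days, 6 weeks and 13 weeks. They were 68.0%, 63.0% and 63.9% without thinning and 56.9%, 63.2% and 54.2% at 500 UMIs, with 33.1% at 2 days at 200 UMIs and 34.3% and 24.9% at 2 days and 6 weeks with read counts. The cause of these moves was not tested. The summed level kept to 22.3 to 25.7 at 2 days and 19.2 to 23.3 at 13 weeks in 17 alternatives each. With 31 to 65 UMIs of Lamb1, Col18a1, Col15a1, Lama4 and Lamc1, depth limits what could be seen of them.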
